A study of Mus musculus with 3 samples.

Results

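The 39 interferon-stimulated genes described here were taken by symbol from the 28692 genes counted in the series, and their levels were compared between the cell classes of mouse mammary tumours. Single-cell RNA was counted in 3 libraries of 1 group, replicates 1 to 3, made from viable DAPI-negative cells sorted for CD45, a surface protein of leukocytes. The 2208L tumour cells had been injected into the mammary gland, and tumours were taken at 4 weeks, when they measured 0.7 to 1 cm across. The labels give the cell type as tumour, while most barcodes carried leukocyte markers. The group has no tumour-free or interferon-treated counterpart, and the labels leave unsaid whether the 3 samples came from different mice, so p-values measure only the spread between these samples. All comparisons therefore lie within the libraries, between classes of barcodes (1 barcode stands for about 1 cell).

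The 39 genes fall into 5 groups by role. The 18 antiviral effectors are Isg15, Isg20, Ifit1, Ifit2, Ifit3, Ifit3b, Rsad2, Oasl1, Oasl2, Mx1, Cmpk2, Ifitm3, Bst2, Samhd1, Xaf1, Rtp4, Ifi44 and Epsti1. The 4 transcription factors are Irf1, Irf7, Irf9 and Stat2. The 5 nucleic acid sensors are Ifih1 (MDA5), Ddx58 (RIG-I), Dhx58 (LGP2), Zbp1 and Ifi204, and the 8 GTPases are Gbp2, Gbp3, Gbp5, Gbp7, Ifi47, Igtp, Irgm1 and Iigp1. Usp18, Herc6, Trim30a and Parp14 are 4 enzymes or regulators of ubiquitin-like, ubiquitin or ADP-ribose marks.

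Interferons are cytokines that switch on a shared set of defence genes in the cells that bind them. Type I interferons, the alpha and beta families, bind the receptor of Ifnar1 and Ifnar2 and activate a transcription factor complex that includes STAT2 and IRF9 and binds the interferon-stimulated response element (ISRE). Interferon gamma, made by T and NK cells, binds the receptor of Ifngr1 and Ifngr2 and acts through the gamma-activated sequence (GAS), and the factor IRF1 that follows binds ISRE-like sites. Isg15 protein is attached to other proteins like ubiquitin, and Usp18 removes it and also dampens signalling at the type I receptor.

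The promoters show how differently these genes are built. RefSeq promoter windows (GRCm38.p6, 250 bases before to 50 after the gene's start) were on hand for 31 of the 39 genes. They were searched on both strands for the ISRE core, which is TTTC, any 2 bases and TTTC (on the other strand GAAA, any 2 bases and GAAA), and the GAS core TTCNNNGAA, which is its own reverse complement. Matches of the same or of different motifs may overlap and were all counted. The ISRE core was in 17 of the 31 windows (54.8%), against 1079 of 27025 windows of all genes (3.99%). The GAS core was in 9 (29.0%, against 9.55% of all), both were in 5 (16.1%, against 0.614%), and neither was in 10. A match is a run of letters, not a bound site. The sequences below are the 200 bases before the start of the genes that the results turn on, 5′ to 3′ on the gene's strand, with every core in capitals.

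The first set holds some of the effector genes with large neutrophil-like differences, with the paralogs Ifit3 and Ifit3b shown together because their windows share a long stretch. Other effectors whose difference was above that of Ifit3 are not shown. Of these, Oasl1, Oasl2 and Cmpk2 had neither core, Isg20 had a GAS core and no ISRE core, and Rtp4 had no window. The set shown thus does not tell whether cores go with the class pattern. Isg15 (minus strand, chr4:156200819-156201018) has 3 overlapping ISRE cores, Ifit1 (plus strand, chr19:34640689-34640888) has 2, Ifit3 (plus strand, chr19:34583329-34583528) and Ifit3b (plus strand, chr19:34607757-34607956) have 2 each, and Rsad2 (minus strand, chr12:26456453-26456652) has 1.
Isg15: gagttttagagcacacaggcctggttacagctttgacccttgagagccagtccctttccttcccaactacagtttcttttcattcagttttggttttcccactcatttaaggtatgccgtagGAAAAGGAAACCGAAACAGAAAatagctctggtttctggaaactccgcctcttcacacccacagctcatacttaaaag
Ifit1: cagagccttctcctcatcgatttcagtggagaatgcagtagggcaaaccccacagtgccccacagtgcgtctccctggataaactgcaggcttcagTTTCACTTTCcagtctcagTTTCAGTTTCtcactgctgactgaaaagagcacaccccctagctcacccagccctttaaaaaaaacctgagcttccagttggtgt
Ifit3: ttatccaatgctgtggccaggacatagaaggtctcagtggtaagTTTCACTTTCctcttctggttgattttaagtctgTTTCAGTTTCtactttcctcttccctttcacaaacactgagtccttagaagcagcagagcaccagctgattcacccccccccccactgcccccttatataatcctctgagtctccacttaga
Ifit3b: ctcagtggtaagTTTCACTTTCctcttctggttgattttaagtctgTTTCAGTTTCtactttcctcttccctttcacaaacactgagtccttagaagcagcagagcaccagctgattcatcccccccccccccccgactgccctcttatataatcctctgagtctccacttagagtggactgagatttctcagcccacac
Rsad2: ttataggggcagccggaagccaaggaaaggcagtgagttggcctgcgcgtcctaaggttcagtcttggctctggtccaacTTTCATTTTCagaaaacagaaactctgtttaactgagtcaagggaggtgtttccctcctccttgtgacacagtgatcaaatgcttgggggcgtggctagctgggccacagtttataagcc

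The second set holds genes with other class patterns. Bst2 (minus strand, chr8:71537473-71537672), the gene that set plasmacytoid-dendritic-cell-like barcodes apart, has a GAS core that runs into 2 overlapping ISRE cores. The GTPase genes are represented by Gbp2 (plus strand, chr3:142620463-142620662), with 1 ISRE core, and by Igtp (plus strand, chr11:58199356-58199555), with 1 GAS and 1 ISRE core. Irf1 (plus strand, chr11:53769814-53770013) has 1 GAS core and no ISRE core. Ifi44 (minus strand, chr3:151749911-151750110), which was low in neutrophil-like barcodes, has neither core in this window.
Bst2: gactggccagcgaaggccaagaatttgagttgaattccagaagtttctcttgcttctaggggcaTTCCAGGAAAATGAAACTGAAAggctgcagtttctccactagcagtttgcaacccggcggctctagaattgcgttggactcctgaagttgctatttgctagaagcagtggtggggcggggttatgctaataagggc
Gbp2: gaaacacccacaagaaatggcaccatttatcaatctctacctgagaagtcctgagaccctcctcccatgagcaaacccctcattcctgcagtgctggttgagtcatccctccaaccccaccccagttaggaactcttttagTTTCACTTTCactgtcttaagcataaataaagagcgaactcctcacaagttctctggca
Igtp: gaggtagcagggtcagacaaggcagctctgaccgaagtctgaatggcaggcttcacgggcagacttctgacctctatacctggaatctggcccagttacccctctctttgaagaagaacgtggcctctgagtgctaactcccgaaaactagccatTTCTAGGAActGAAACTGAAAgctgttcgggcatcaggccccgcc
Irf1: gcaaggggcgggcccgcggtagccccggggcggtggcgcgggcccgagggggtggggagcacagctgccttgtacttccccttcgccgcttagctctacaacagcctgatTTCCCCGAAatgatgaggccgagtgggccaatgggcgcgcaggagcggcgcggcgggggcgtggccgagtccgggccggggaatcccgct
Ifi44: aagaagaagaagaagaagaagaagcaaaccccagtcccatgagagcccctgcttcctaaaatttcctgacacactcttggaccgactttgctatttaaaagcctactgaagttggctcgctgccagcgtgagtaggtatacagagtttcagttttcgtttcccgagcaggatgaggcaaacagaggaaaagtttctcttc

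The libraries held 9846404, 15259236 and 9445914 UMIs (unique molecular identifiers, each a captured transcript) over 4424, 6036 and 3876 barcodes, and 14226 barcodes in all passed the filters. Barcodes were clustered without the 39 genes and without 124 other interferon-induced genes, and clusters were named from standard markers, so the members took no part in making the classes. The classes held 6090 neutrophil-like, 209 plasmacytoid-dendritic-cell-like, 2876 monocyte/macrophage-like, 676 dendritic-cell-like, 3215 T-cell-like, 507 NK-cell-like and 272 epithelial-like barcodes, the last of a kind that a CD45 sort should remove. Plasmacytoid-dendritic-cell-like barcodes numbered only 24, 160 and 25 in replicates 1, 2 and 3, and 1 UMI there stands for a large level. Levels are given as CPM, the UMIs of a gene per 1000000 UMIs summed over a class in a library, and values listed by threes are replicates 1, 2 and 3. Overlap is judged across libraries, with every library of a class set against every library of another. Classes that overlap can thus keep the same order within each library. UMIs are not scaled by gene length and a gene's capture is its own, so levels are compared between classes and not between genes. A class sum is a share of its RNA: more RNA per cell of other genes and fewer cells that express a member cannot be told apart in it.

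Neutrophil-like barcodes gave the largest share of their transcripts to the 39 genes. Their summed level was 11433, 14958 and 12592 CPM, against 7252, 6609 and 9549 in plasmacytoid-dendritic-cell-like and 4161, 5377 and 5721 in monocyte/macrophage-like barcodes. It was 3614, 4601 and 5764 in dendritic-cell-like, 2859.7, 3062 and 3192 in T-cell-like, 2456, 3224 and 2983 in epithelial-like and 1866, 2178 and 2073 in NK-cell-like barcodes. The neutrophil-like libraries all lay above every library of every other class, and the plasmacytoid-dendritic-cell-like libraries all lay above every library of the remaining 5 classes. Monocyte/macrophage-like and dendritic-cell-like libraries overlapped each other and lay above those of T-cell-like and epithelial-like barcodes, which overlapped in turn, and NK-cell-like libraries lay below all others.

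The sums rested on few genes, and on different ones in each class. In neutrophil-like barcodes Isg15 made up 27.7% of the members' UMIs, the membrane restriction factor gene Ifitm3 20.2% and Rsad2, which encodes viperin, 8.60% (means of 3 libraries). In plasmacytoid-dendritic-cell-like barcodes Bst2, which encodes the virion tether tetherin, made up 60.9% and Irf7 10.5%. Ifitm3 alone was 59.5% of the members' UMIs in epithelial-like, 47.2% in dendritic-cell-like and 42.5% in monocyte/macrophage-like barcodes.

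The 2 largest myeloid classes changed places in transcripts per barcode, as they differ in depth. Without thinning a neutrophil-like barcode held 10.4, 14.5 and 14.8 member UMIs on average, at median totals of 805, 819 and 1056 UMIs. A monocyte/macrophage-like barcode held 18.8, 24.5 and 36.9, at median totals of 4072, 4043 and 5758. With each barcode thinned at random to 600 UMIs, the means were 6.74, 8.71 and 7.36 in neutrophil-like barcodes, against 2.82, 3.43 and 3.61 in monocyte/macrophage-like ones. Neutrophil-like barcodes were thus above monocyte/macrophage-like ones in the share of RNA captured and below them in member UMIs per barcode.

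The member transcripts were unevenly spread within most classes. At 600 UMIs the 10% of neutrophil-like barcodes with the most member UMIs held 46.6, 41.9 and 48.4% of the class's member UMIs. The same 10% held 52.3, 43.3 and 57.3% in T-cell-like and 17.6, 25.4 and 14.1% in plasmacytoid-dendritic-cell-like barcodes. At least 1 member UMI was found in 79.1, 88.2 and 81.5% of neutrophil-like and 48.0, 52.3 and 53.5% of NK-cell-like barcodes. When the interferon genes were kept in the clustering, 489 barcodes formed a neutrophil cluster with 8 members among its 10 leading genes. It took 5.80%, 9.84% and 7.91% of the neutrophil-like barcodes and 23.5%, 30.9% and 31.5% of their member UMIs, values that the choice of that cluster fixes.

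**Figure D1:**
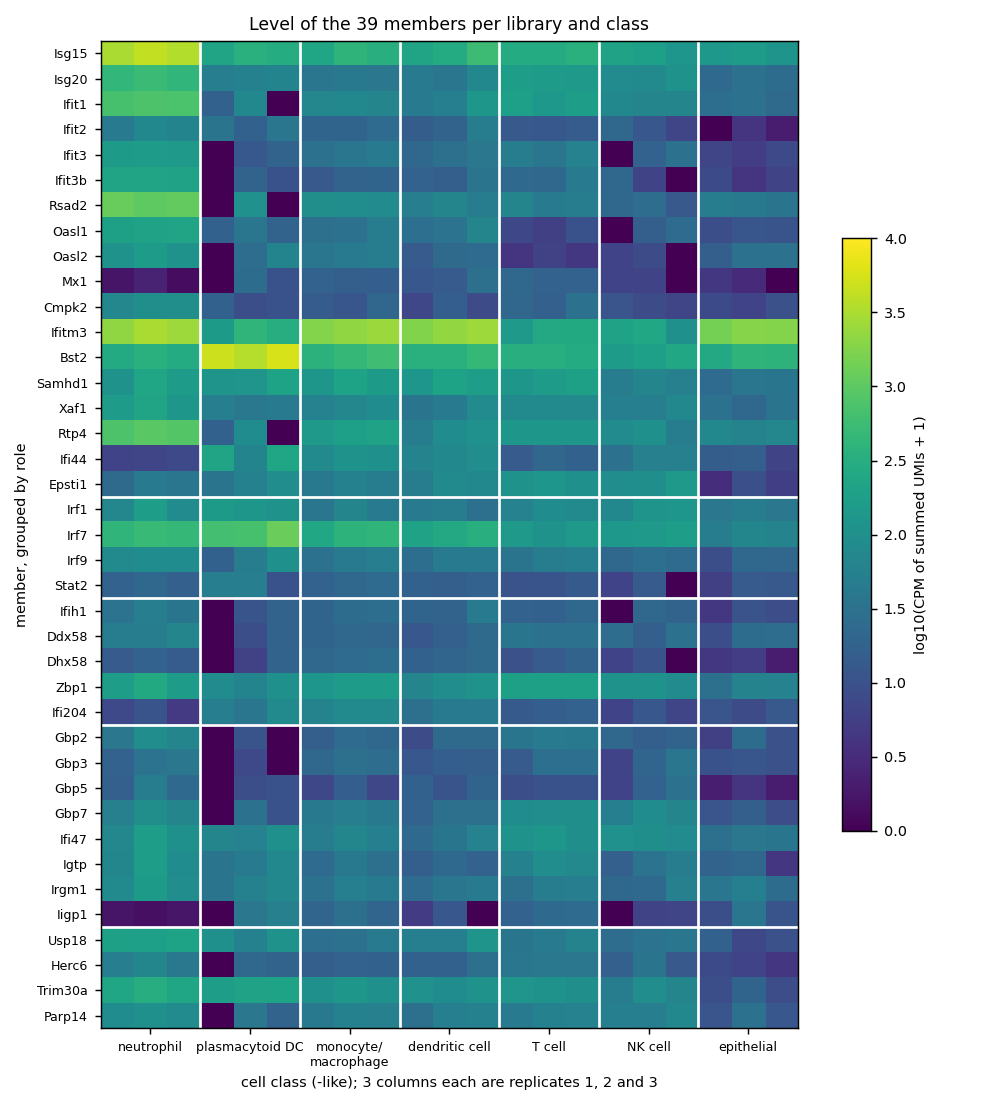
Level of each of the 39 genes, by role, in the 3 libraries of each of 7 cell classes, as log10(CPM + 1) of summed UMIs. Isg15, Rsad2, Rtp4 and the Ifit genes are brightest in the neutrophil-like columns, Bst2 and Irf7 in the plasmacytoid-dendritic-cell-like columns, and Ifitm3 is bright in 4 of the 7 classes.

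A gene was called shared where its mean was at least 20 CPM in all 7 classes, and restricted where it reached that level in at most 2. By this measure 13 of the 39 were shared, namely Isg15, Isg20, Ifit1, Ifitm3, Bst2, Samhd1, Xaf1, Rtp4, Irf1, Irf7, Zbp1, Ifi47 and Irgm1. Of all 7665 genes whose highest class mean was at least 20 CPM, 32.4% were shared and 35.9% restricted, so the shared share of the members (13 of 39) is close to that of other genes. Another 21 members reached the level in 3 to 6 classes. The level is arbitrary: at 10 CPM 20 members were shared and 0 restricted, and at 50 CPM 4 were shared and 20 restricted.

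Of the 5 restricted genes, Mx1, a dynamin-like GTPase of antiviral defence, reached 20 CPM in 0 classes, with 21.3, 17.2 and 16.9 CPM in T-cell-like, its highest class, and 0.659, 1.45 and 0.373 in neutrophil-like barcodes. Its label rests on the 20 CPM level alone, as its means in T-cell-like and dendritic-cell-like barcodes were close, at 18.5 and 17.8 CPM. Mx1 is also outside the genes that gave the background shares above. Gbp5, a guanylate-binding protein gene, reached it only in neutrophil-like barcodes (15.8, 49.2 and 22.4), and Dhx58, whose product regulates the RNA sensors, only in monocyte/macrophage-like barcodes (21.4, 23.7 and 27.0). Cmpk2, a mitochondrial nucleotide kinase gene, reached it in neutrophil-like (71.2, 95.4 and 93.4) and T-cell-like barcodes (22.0 ± 7.49, mean ± SD, n = 3). Stat2 reached it in plasmacytoid-dendritic-cell-like (49.6, 50.6 and 9.05) and monocyte/macrophage-like barcodes (17.1, 20.8 and 24.2). The libraries of the highest class overlapped those of another class for Mx1, Gbp5, Dhx58 and Stat2, and Cmpk2 in neutrophil-like barcodes stood apart. Without replicate 3 the number of restricted genes was 10.

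Neutrophil-like barcodes had the highest mean for 27 members, and for 17 of these each neutrophil-like library lay above every library of every other class. Over the 7665 genes these shares were 19.0% and 11.6%. Plasmacytoid-dendritic-cell-like barcodes were highest for Irf7, Bst2, Irf1, Stat2, Iigp1 and Ifi44, of which Irf7 and Bst2 stood apart in all libraries. Over the 7665 genes the shares were 19.3% and 5.83%, so these 6 and 2 of 39 are near the background. T-cell-like barcodes were highest for Mx1, Gbp7 and Epsti1 (9.34% of all genes), monocyte/macrophage-like for Ifi204 and Dhx58 (9.39%), and dendritic-cell-like for Samhd1 (6.46%), each with overlap. Epithelial-like barcodes were lowest for 23 members, a count without a background, since the lowest class was not counted over all genes.

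Each class was then tested against the unweighted mean of the other 6 classes, over 9565 genes in 1 fit of edgeR's quasi-likelihood test with library as a block. A gene was called at an adjusted p under 0.05. In neutrophil-like barcodes 32 of the 39 members were called higher, against a background of 32.6% of all genes, and 5 lower, against 31.2%. The median log2 difference of the members was 1.77, against -0.07 over all genes. Scaling by library totals in place of TMM moved the median of all genes by -0.24 and left 32 members called higher. The direction in single libraries was read from log2(CPM + 1) minus the mean of the same over the other classes. All 37 called members lay in the direction of their call in 3 of 3 libraries. So did the calls in the other classes, except Rsad2 and Stat2 in T-cell-like, Rtp4 in dendritic-cell-like, Gbp3, Rsad2, Rtp4 and Stat2 in epithelial-like and Iigp1, Mx1 and Stat2 in plasmacytoid-dendritic-cell-like barcodes.

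Antiviral effectors held the largest differences, with 14 of 18 higher and 3 lower. Rsad2 had 1185, 1014 and 1091 CPM in neutrophil-like barcodes, against means of 19.8 to 90.4 in the other classes, a log2 difference of 4.68 ± 0.13 (SE). Isg15 (minus strand, chr4:156199424-156200818) had 3079.5, 4277 and 3465 CPM, against means of 137 to 348, a log2 difference of 4.11 ± 0.12. Neither gene's neutrophil-like libraries came near those of another class. Ifit3b differed by 4.21 ± 0.15 and Ifit1, whose product binds RNA that lacks the marks of host transcripts, by 3.70 ± 0.15. Ifit1 had 677, 750.4 and 733 CPM and Ifit3b 214, 215 and 204, against means of 27.1 to 163 and 5.25 to 28.4 in the other classes. The 2 Ifit3 genes are near-identical copies, and how the counting shared their reads is not given in the sources used here. For these 4 genes edgeR's quasi-likelihood test gave adjusted p of 1.93e-20 or lower.

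Other effectors of this group were also higher in neutrophil-like barcodes. Oasl1, an oligoadenylate-synthetase-like gene, had 188, 198 and 217 CPM, against means of 6.74 to 41.3, a log2 difference of 3.69 ± 0.13. Rtp4, a chaperone gene of membrane receptors, had 772, 941 and 859 CPM, against 34.9 to 174, a log2 difference of 3.46 ± 0.13. All neutrophil-like libraries of both genes lay above all other libraries. Oasl2, Isg20 (an exonuclease gene), Cmpk2, Ifit3, Ifit2, Ifitm3, Xaf1 and Samhd1 (a dNTP hydrolase gene) differed by 3.27, 3.25, 3.22, 3.21, 2.62, 2.18, 1.95 and 0.98 on the log2 scale. Of these 8 genes, Ifit2, Ifitm3 and Samhd1 had neutrophil-like libraries that overlapped another class. Within the same library Ifit2 and Ifitm3 were below the neutrophil-like level in every other class, at most at 74.6% and 98.9% of it. Samhd1 in dendritic-cell-like barcodes was at 110%, 93.8% and 105% of it.

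Outside the effectors the largest difference in neutrophil-like barcodes was that of Usp18. Of the GTPases, which act on the membranes around intracellular pathogens, 7 of 8 were higher, led by Gbp2 at 2.22 ± 0.17 (36.9, 91.1 and 64.2 CPM, against means of 3.27 to 39.4) and Gbp5 at 2.17 ± 0.24. Igtp, an immunity-related GTPase gene, had 67.9, 166 and 85.9 CPM, against means of 14.1 to 73.1, a log2 difference of 2.08 ± 0.15. Gbp2, Gbp5 and Igtp were highest in replicate 2, and Gbp2 in replicate 1 and Igtp in replicates 1 and 3 lay below the highest T-cell-like library. Within the same library both stayed higher in neutrophil-like barcodes. T-cell-like Gbp2 was at 93.2%, 48.0% and 62.4% of the neutrophil-like level, and Igtp at 82.0%, 53.5% and 86.8%. Of the transcription factors Irf9 (1.57 ± 0.13), Irf7 (1.41 ± 0.11) and Irf1 (0.99 ± 0.12) were higher, and Stat2 did not pass (0.47 ± 0.22, adjusted p = 0.0580 by edgeR's quasi-likelihood test). Of the sensors Ddx58 (1.77), Ifih1 (1.64), Zbp1 (1.29) and Dhx58 (0.84) were higher. Among these GTPases, factors and sensors only Irgm1 and Ddx58 had all neutrophil-like libraries above those of every other class. Gbp7, Irf7, Irf1 and Dhx58 had a higher mean in another class. Dhx58 was at 166% of its neutrophil-like level in monocyte/macrophage-like and 135% in dendritic-cell-like barcodes (means of 3 libraries). All 4 enzymes were higher: Usp18 (185, 181 and 212 CPM, against means of 10.5 to 87.7) differed by 2.61 ± 0.11, Trim30a by 1.99, Herc6 by 1.82 and Parp14 by 1.49. The Gbp genes and Trim30a have close relatives in the mouse genome, and their counts are uncertain where reads were shared between copies.

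The programme had gaps in neutrophil-like barcodes. Iigp1, an immunity-related GTPase gene, had 4 UMIs among 6270344, at 0.659, 0.482 and 0.747 CPM, against means of 3.87 to 30.6 in the other classes (log2 difference -4.05 ± 0.62). Mx1 had 5 UMIs, at 0.659, 1.45 and 0.373 CPM, against 1.88 to 18.5 (log2 difference -3.24 ± 0.57). Every neutrophil-like library of both genes thus lay at or near 0, in the class where most members were highest. Ifi44, a gene of the same effector group, had 5.27, 5.78 and 6.72 CPM, against means of 11.5 to 168, a log2 difference of -2.64 ± 0.28. Ifi204, a DNA sensor gene, had 6.59, 10.1 and 3.73 CPM, against 7.50 to 72.5, a log2 difference of -1.58 ± 0.26. Bst2 was called lower against the mean of the other classes (-0.49 ± 0.12, adjusted p = 0.000619 by edgeR's quasi-likelihood test), a mean that includes the plasmacytoid-dendritic-cell-like level. Its neutrophil-like level of 274, 345 and 285 CPM overlapped those of T-cell-like and epithelial-like barcodes. Epsti1 did not pass (-0.18 ± 0.16, adjusted p = 0.352).

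**Figure D2:**
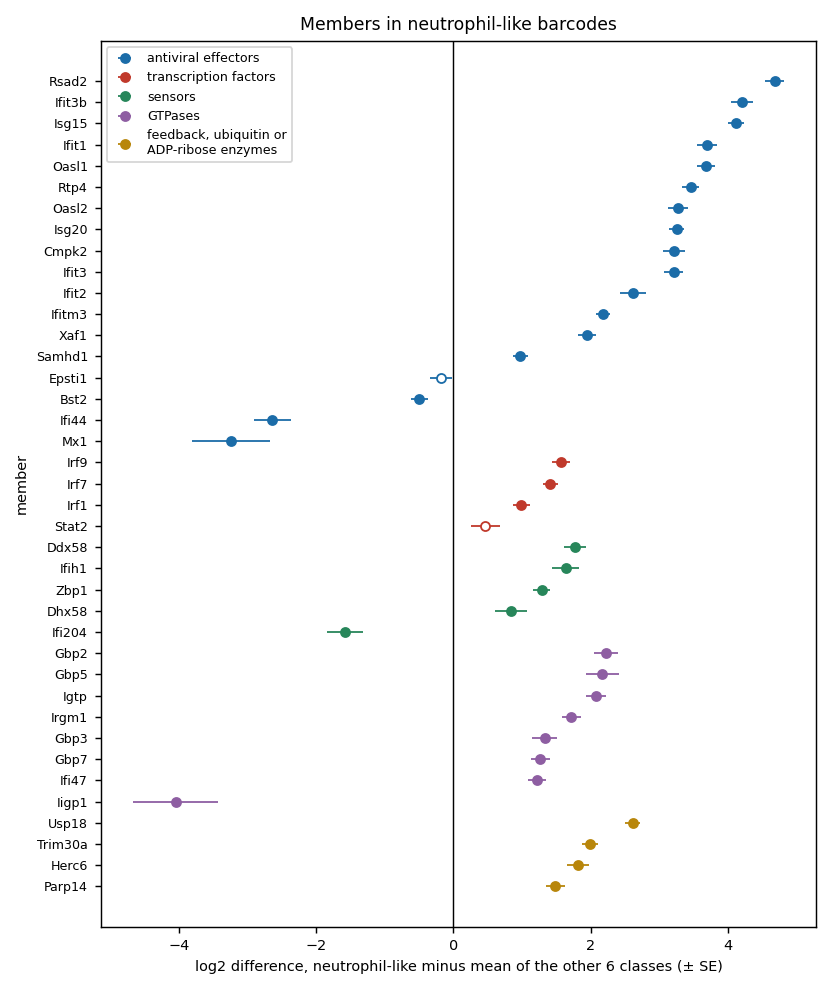
Log2 difference of each of the 39 genes between neutrophil-like barcodes and the mean of the other 6 classes, with its standard error; filled points were called at an adjusted p under 0.05 and colours mark the roles. The points run from Rsad2 at 4.68 to Iigp1 at -4.05, with Epsti1 and Stat2 open.

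Free RNA from neutrophils can add UMIs to other barcodes, and the calprotectin genes S100a8 and S100a9 give a yardstick for it. Their level in the other classes was 1.09% to 2.66% of the neutrophil-like level, as means of 3 libraries. Of the 27 members with their highest mean in neutrophil-like barcodes, Rsad2 in NK-cell-like barcodes, at 1.82% of its neutrophil-like level, was at or below the calprotectin shares of the same class. All other such means lay above them, and the median over the 27 genes ran from 10.1% in epithelial-like to 37.0% in T-cell-like barcodes. Single libraries varied more: S100a8 in NK-cell-like barcodes was at 5.16%, 2.07% and 0.345%. Some members were at 0 in a library, such as Rsad2 in plasmacytoid-dendritic-cell-like barcodes of replicates 1 and 3. How much of each level is free RNA was not tested.

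Plasmacytoid dendritic cells are known as strong producers of type I interferon, and Irf7 encodes the factor that drives its genes there. In plasmacytoid-dendritic-cell-like barcodes 9 members were higher, against a background of 12.3% of all genes, and 11 lower, against 8.11%; the median difference was -0.37. Bst2 had 4955, 3526 and 5819.8 CPM, against means of 197 to 470.0 in the other classes, a log2 difference of 3.55 ± 0.10 (adjusted p = 2.55e-23 by edgeR's quasi-likelihood test). Irf7 had 628, 676 and 1204 CPM, against 58.9 to 460.3, a log2 difference of 1.81 ± 0.14 (adjusted p = 2.32e-12). Both genes were higher there in all 3 libraries than in any library of any other class. Iigp1 (0, 37.6 and 54.3 CPM, difference 1.86 ± 0.46) and Ifi44 (215, 62.0 and 226 CPM, difference 1.73 ± 0.29) were also called higher, with Mx1, Stat2, Ifi204, Trim30a and Irf1. Iigp1, Mx1 and Stat2 were higher in 2 of 3 libraries, Iigp1 and Mx1 had 0 UMIs in replicate 1, and Mx1 changed sign without replicate 2.

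The lower calls of plasmacytoid-dendritic-cell-like barcodes took in several of the genes that led in neutrophil-like ones. Ifitm3 had 149, 409.8 and 308 CPM, against means of 179.5 to 2639 in the other classes, a log2 difference of -1.87 ± 0.17. Ifit1 had 16.5, 71.8 and 0 CPM and Rtp4 16.5, 88.2 and 0, with differences of -1.09 ± 0.35 and -1.42 ± 0.29. Rsad2 had 0, 104 and 0 CPM and was not called (-0.32 ± 0.31). The 0 values rest on 60539 and 110485 UMIs in replicates 1 and 3, where a count of 0 allows up to 49.6 and 27.2 CPM. The other members called lower were Isg15, Isg20, Ifit3, Ddx58, Zbp1, Gbp2, Gbp3 and Gbp7.

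Monocyte/macrophage-like barcodes had 18 members higher, against a background of 30.3%, and 3 lower, against 14.6%, and 4 of 5 sensors were among the higher ones. Ifi204 led, with 60.8, 79.8 and 76.9 CPM, against means of 6.81 to 55.6 in the other classes, a log2 difference of 2.25 ± 0.13. Ifi44 had 79.8, 109 and 102 CPM (difference 1.83 ± 0.14) and Ifitm3 1792, 2172 and 2527 CPM (difference 1.62 ± 0.11). Iigp1, nearly absent from neutrophil-like barcodes, had 19.5, 28.8 and 19.3 CPM (difference 1.58 ± 0.24). For these 4 genes edgeR's quasi-likelihood test gave adjusted p of 2.09e-06 or lower. Isg20 (-1.17), Irf1 (-0.58) and Usp18 (-0.55) were lower. DESeq2 called 11 members higher in place of 18.

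The class was not uniform. The 2 clusters with monocyte genes in the lead (Ly6c2, Chil3 and Plac8 in the one, Ms4a4c, Clec4a1 and Ccl9 in the other) had summed member levels of 10313, 10618 and 11960.3 and 10179, 10157 and 12146 CPM. The largest macrophage cluster (Arg1, C1qb, Tmem119) had 2740.2, 4289 and 4283, a cluster with Folr2, Ccl8 and Mrc1 had 7500.4, 7047 and 8785, and a cluster of dividing cells had 1968, 3240.3 and 3329.8. Every library of both monocyte clusters lay above every library of the macrophage clusters. Across libraries both monocyte clusters overlapped the neutrophil-like class as a whole, which had 11433, 14958 and 12592 CPM. Within each library both lay below it. These levels are descriptions of clusters, with no test.

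Dendritic-cell-like barcodes had 10 members higher, against a background of 22.4%, and 6 lower, against 10.5%. Ifitm3 had 1746, 2239 and 2581 CPM (difference 1.70 ± 0.11), Ifi44 61.1, 72.2 and 90.1 (difference 1.42 ± 0.19) and Ifi204 28.5, 43.0 and 42.8 (difference 1.22 ± 0.20). Mx1, at 11.2, 13.3 and 29.0 CPM, differed by 1.51 ± 0.34. The lower calls were Isg20, Irf1, Rtp4 and the GTPases Ifi47, Igtp and Gbp7, of which Gbp7 (-0.70) was at 0.052 without the highest doublet scores. Without replicate 3 the higher calls numbered 6, without replicate 2 the lower calls 3, and with the interferon genes kept for clustering the lower calls 19. Within the class a Cd209a cluster had 6768, 7370.2 and 7553 CPM of summed members and the Xcr1 cluster of cross-presenting dendritic cells 3104, 3983 and 4872.

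T-cell-like barcodes had 18 members higher, against a background of 26.3%, and 8 lower, against 19.6%. Of the GTPases 6 of 8 were higher. Gbp7 had 88.2, 89.0 and 97.0 CPM, against means of 11.1 to 71.1 in the other classes, a log2 difference of 1.47 ± 0.13. Igtp had 55.7, 89.0 and 74.5 CPM (difference 1.25 ± 0.16) and Iigp1 16.9, 22.1 and 23.9 (difference 1.41 ± 0.29). Epsti1 had 107, 126 and 101 CPM (difference 1.55 ± 0.13) and Mx1 differed by 1.67 ± 0.28. For these 5 genes edgeR's quasi-likelihood test gave adjusted p of 0.000137 or lower. For each of the 5 the T-cell-like libraries overlapped those of at least 1 other class.

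The genes lower in T-cell-like barcodes came mostly from the effectors. Oasl2 had 3.13, 5.21 and 3.52 CPM, against means of 4.26 to 125, a log2 difference of -2.68 ± 0.35, and Oasl1 had 6.25, 4.81 and 9.14 CPM and a difference of -2.31 ± 0.27. Ifitm3 had 145, 263 and 271 CPM and a difference of -2.21 ± 0.15. T-cell-like barcodes had the lowest mean of the 7 classes for Oasl1 and Oasl2, and NK-cell-like ones for Ifitm3. Rsad2 was called lower (-0.70), but on the log2(CPM + 1) scale it lay above the mean of the other classes in 2 of 3 libraries. The sign turned without replicate 2 and also without the highest doublet scores. Ifi44, Irf7, Bst2 and Stat2 were the other lower calls. Within the class a cluster with Cd8a and Gzmk had 4638, 3903 and 5206 CPM of summed members, and a cluster with Il17a and Trdc, a gamma-delta T-cell receptor gene, had 1693, 2241 and 1720.1.

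NK-cell-like barcodes had 3 members higher, against a background of 13%, and 9 lower, against 10.5%. Epsti1 had 89.6, 97.8 and 143 CPM (difference 1.36 ± 0.21), Gbp7 52.7, 88.4 and 65.5 (difference 1.02 ± 0.23) and Irf1 73.8, 115 and 125 (difference 0.62 ± 0.21). The first 2 were also higher in T-cell-like barcodes. Ifitm3 (-2.52), Oasl2 (-2.28), Rsad2 (-2.15), Bst2 (-1.51), Isg15 (-1.29), Irf7, Samhd1, Rtp4 and Ifi204 were lower. Without replicate 2, which holds most of the NK-cell-like UMIs, 1 member was higher.

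Epithelial-like barcodes were named from epithelial markers, so the higher level of 6 of 6 tested ones is no separate evidence. These barcodes stood at the other end. In them 2 members were higher, against a background of 33.4%, and 34 lower, against 28.3%, with a median difference of -1.66. Ifitm3 had 1466, 1858 and 1825 CPM (difference 1.10 ± 0.12), against 1792, 2172 and 2527 in monocyte/macrophage-like barcodes, and Iigp1 had 8.14, 36.4 and 10.0 (difference 1.07 ± 0.35), with replicate 2 far above the others. Without replicate 2 only 1 member was called higher. The largest lower differences were those of Ifit2 (0, 3.21 and 1.11 CPM, -3.88 ± 0.53), Epsti1 (2.32, 8.57 and 4.46 CPM, -3.73 ± 0.28) and Trim30a (8.14, 18.2 and 7.80 CPM, -3.57 ± 0.23). Every epithelial-like library of Trim30a lay below every library of every other class. Isg15 had 136, 156 and 118 CPM and a difference of -1.74 ± 0.18. All 4 transcription factors and all 4 enzymes were among the lower genes. Rsad2 was called lower too (-1.25) but changed sign without replicate 2, and Gbp2 (-0.83) did without the highest doublet scores.

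Neutrophil-like barcodes were divided into 4 states by clustering them again without the interferon genes listed above. The states are named by leading genes: Cxcl10/Saa3 (1553 barcodes), Hilpda/Cxcl3 (1719), Ngp/Camp (244), whose leading genes encode granule proteins of young neutrophils, and Ltc4s/Cxcl14 (2546). Another cluster of 28 barcodes, led by T-cell genes, was left out. Genes that move with the members, such as the interferon-induced chemokine gene Cxcl10 and the guanylate-binding gene Gbp2b, stayed among the clustering genes, so the states are not independent of the interferon programme and the tests between them describe its size.

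The summed members had 17389, 20432 and 20496 CPM in the Cxcl10/Saa3 state and 15776, 18323 and 15920.5 in the Hilpda/Cxcl3 state. They had 7609.8, 11676 and 12489 CPM in the Ngp/Camp state and 4752, 5749 and 5389 in the Ltc4s/Cxcl14 state. The libraries of the Ltc4s/Cxcl14 state lay below those of every other state, and those of the Ngp/Camp state below both leading states, whose own ranges overlapped. Even the Ltc4s/Cxcl14 state stayed near the level of monocyte/macrophage-like barcodes.

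Each state was tested against the mean of the other 3, over 5381 genes, of which 35 were members; Ifi204, Ifi44, Iigp1 and Mx1 were too low. In the Cxcl10/Saa3 state 30 of 35 members were higher, against a background of 10.4%, and 0 lower, against 4.20%. In the Hilpda/Cxcl3 state 28 were higher, against 27.5%, and 2 lower, against 12.4%. In the Ltc4s/Cxcl14 state 0 were higher, against 32.5%, and 33 lower, against 27.0%. In the Ngp/Camp state 8 were higher, against 11.6%, and 3 lower, against 13.6%. All but 14 of these calls lay in their direction in 3 of 3 libraries on the log2(CPM + 1) scale; Irf1 was among the exceptions in 3 states, and Irf7 in the Hilpda/Cxcl3 state was higher in 0 of 3. For the counts of 0, edgeR's test at an unadjusted p under 0.05 found 0 lower in the Cxcl10/Saa3 and 0 higher in the Ltc4s/Cxcl14 state, where DESeq2 called 0 and 1. With library totals the higher and lower members numbered 34 and 0, 20 and 3, 1 and 29, and 3 and 11 in the order of states given here, and the median of all genes moved by 0.18, -0.40, 0.71 and -0.50.

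The 2 leading states differed in some members. Rsad2 had 2154, 2023 and 1979.9 CPM in the Hilpda/Cxcl3 state, where its difference was 2.68 ± 0.08, against 1401, 947 and 1543 in the Cxcl10/Saa3 state. Irf7 went the other way, with 395, 459.8 and 454 CPM in the Hilpda/Cxcl3 state and 713, 769 and 794 in the Cxcl10/Saa3 state, where its difference was 0.80 ± 0.09. The libraries of the 2 states did not overlap for either gene. Irf1 had 43.0, 106 and 45.7 CPM in the Hilpda/Cxcl3 state (called lower, -0.69 ± 0.16) and 71.8, 255 and 139 in the Cxcl10/Saa3 state (called higher, 0.56 ± 0.14, with 2 of 3 libraries in that direction). Samhd1 had 100.4, 137 and 124 CPM (lower, -0.44 ± 0.13) and 177, 355 and 326 (higher, 0.70 ± 0.11) in these states. For these 4 genes and the directions named, edgeR's quasi-likelihood test gave adjusted p of 0.00179 or lower. The states were not tested against each other, and Irf7 in the Hilpda/Cxcl3 state, called higher at 0.30, was at -0.10 with library totals.

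Isg15 had 4588, 6070.4 and 5894 CPM in the Cxcl10/Saa3 and 4499.7, 5319 and 4437 in the Hilpda/Cxcl3 state. It had 1685, 2503 and 3447 CPM in the Ngp/Camp state and 1109, 1488 and 1307 in the Ltc4s/Cxcl14 state. At 600 UMIs it was detected in 62.3%, 70.9% and 64.4% of the barcodes of the Cxcl10/Saa3 state and 69.0%, 75.6% and 70.2% of those of the Hilpda/Cxcl3 state. In the Ltc4s/Cxcl14 state the shares were 26.3%, 35.5% and 29.9%, so the gene was less frequent there in each library but not absent. GTPases, with 7 of 7 tested members higher in the Cxcl10/Saa3 state, included Igtp at 135, 255 and 141 CPM (difference 0.89 ± 0.15), whose level in the Hilpda/Cxcl3 state, 59.0, 109.7 and 65.3, was not called (-0.10 ± 0.17).

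Some members departed from the general order. Samhd1 was highest in the Ngp/Camp state by mean, at 340.5, 450.4 and 300.1 CPM (difference 1.71 ± 0.18). Ifitm3 had 2486, 3621 and 4047 CPM there (difference 0.94 ± 0.09), overlapping its level of 3343, 4396 and 4201 in the Cxcl10/Saa3 state. Bst2 was lowest in the Ngp/Camp state, with 34.0, 26.0 and 73.0 CPM (difference -2.29 ± 0.31), and not called in the Ltc4s/Cxcl14 state, with 282, 375 and 321 CPM. Bst2 and Epsti1 were the members not called lower in the Ltc4s/Cxcl14 state. The Ngp/Camp state held 244 barcodes, and of its 8 higher members Irf1, Irf7, Oasl1 and Rtp4 were higher in 2 of 3 libraries on the log2(CPM + 1) scale.

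**Figure D3:**
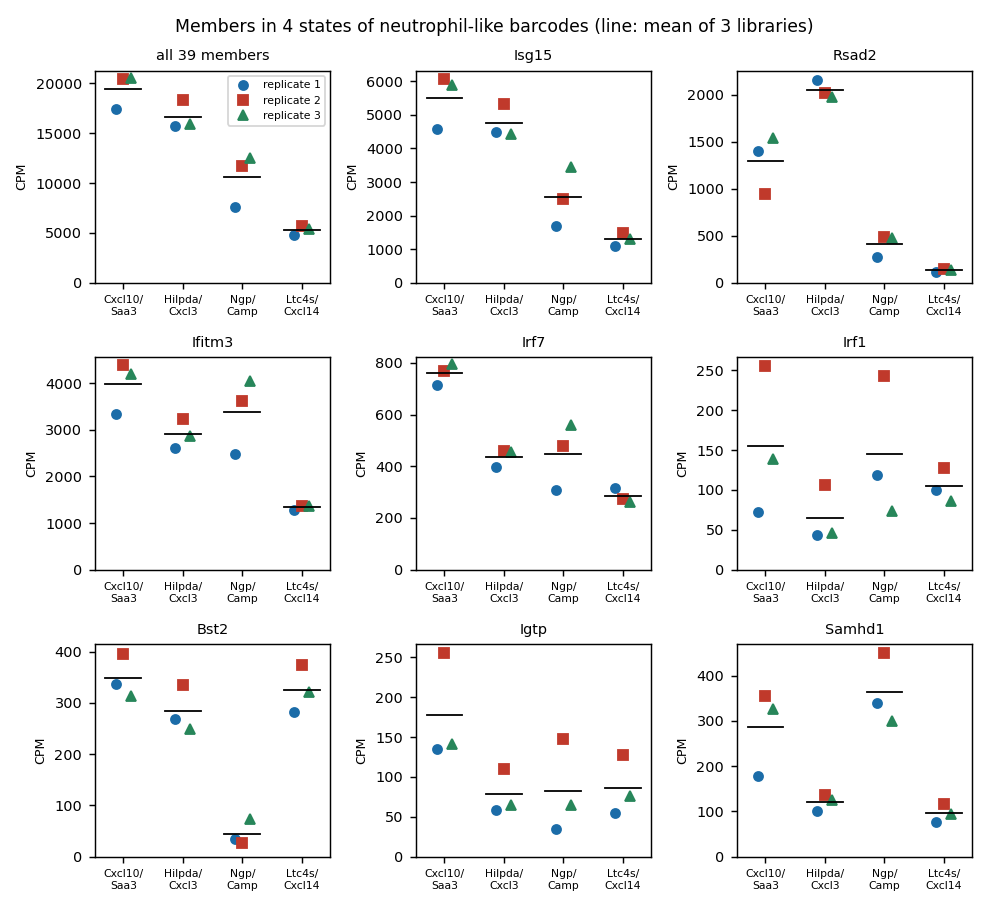
CPM of the 39 genes summed and of 8 of them in the 4 states of neutrophil-like barcodes, 1 point per library with the mean as a line. The Ltc4s/Cxcl14 points are the lowest for the sum, Isg15 and Rsad2, Rsad2 peaks in the Hilpda/Cxcl3 state, Irf7 in the Cxcl10/Saa3 state, and Bst2 is lowest in the Ngp/Camp state.

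Whether the other members were found in the same barcodes as Isg15 was asked in the 3 classes with enough barcodes. Each barcode was thinned to 600 UMIs and counted as detected with at least 1 Isg15 UMI. Isg15 was detected in 49.5, 59.3 and 50.2% of neutrophil-like, 10.7, 15.9 and 12.5% of monocyte/macrophage-like and 12.0, 12.1 and 10.9% of T-cell-like barcodes. Detection depends on depth: of the undetected barcodes, 113, 130 and 201 neutrophil-like ones had Isg15 before thinning, and 225, 443 and 194 monocyte/macrophage-like ones, which are deeper.

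The other 38 members were higher together in Isg15-detected barcodes of all 3 classes. Their sum was 14026, 14784 and 15136 CPM in Isg15-detected and 2633, 3829.9 and 2490.0 in undetected neutrophil-like barcodes. It was 9455, 9086 and 10556 in detected and 3833, 4616 and 5049 in undetected monocyte/macrophage-like barcodes. In T-cell-like barcodes it was 9279, 6988 and 11689 in detected and 2004, 2397 and 1797 in undetected ones. The detected and undetected libraries did not overlap in any of the 3 classes.

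In edgeR's quasi-likelihood test 34 of 34 members tested were higher in Isg15-detected neutrophil-like barcodes, against a background of 17.1% of 4562 genes. In T-cell-like barcodes 24 of 27 were higher, against 5.70% of 2700 genes, and in monocyte/macrophage-like barcodes 13 of 22, against 2.50% of 2561. Lower members numbered 0 in each by edgeR, by DESeq2 and at an unadjusted p under 0.05 in edgeR, at backgrounds of 13.7%, 1.63% and 0.664%. All 71 calls lay in the same direction in 3 of 3 libraries. The low-count filter keeps a gene with enough UMIs in either group, so members high only with Isg15 entered the test. Without that filter 34 of 38 members were higher in neutrophil-like, 27 of 38 in T-cell-like and 13 of 38 in monocyte/macrophage-like barcodes, and 0 were lower. With library and state as the block 15 of the 15 members that could be tested were higher in neutrophil-like barcodes. The clusters within monocyte/macrophage-like and T-cell-like barcodes, which differ in summed members, were not used as a block. How far the split follows those clusters was not tested. Without replicate 3 the T-cell-like count was 12 of 31, and at 1000 UMIs per barcode the monocyte/macrophage-like count was 27 of 33.

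The members with the largest differences were not the same in the 3 classes, and neither were the members tested. Ifit3b, Cmpk2 and Ifih1 did not pass the low-count filter in monocyte/macrophage-like barcodes, so they could not lead there. In neutrophil-like barcodes Ifit3 had 276, 247 and 300.4 CPM in detected and 7.37, 11.3 and 13.9 in undetected barcodes, a log2 difference of 4.82 ± 0.21. Ifit3b, Ifit1 and Cmpk2 followed at 4.64, 4.46 and 4.42. In T-cell-like barcodes Ifit1 had 1157, 713 and 1289 CPM in detected and 89.5, 81.3 and 76.0 in undetected barcodes (difference 3.58 ± 0.19), followed by Usp18 at 3.45, Ifih1 at 3.09 and Cmpk2 at 3.06. In monocyte/macrophage-like barcodes Rsad2 had 462, 391 and 449.7 CPM in detected and 33.7, 50.3 and 30.2 in undetected barcodes (difference 3.31 ± 0.25), followed by Usp18 at 3.09, Ifit1 at 2.45 and Ifit3 at 2.35. Ifit1 and Ifit3 were called higher in all 3 classes. For the genes that lead each class edgeR's quasi-likelihood test gave adjusted p of 7.52e-11 or lower.

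Irf1 and Epsti1 were called in 1 of the 3 classes. Irf1 was higher in Isg15-detected neutrophil-like barcodes by 0.95 ± 0.17, the smallest difference of the 34, and was not called in T-cell-like (0.62 ± 0.37) or monocyte/macrophage-like barcodes (0.53 ± 0.41). Epsti1 was higher in neutrophil-like barcodes (2.01 ± 0.34) and not called in T-cell-like (0.73 ± 0.28) or monocyte/macrophage-like ones (0.44 ± 0.40). Bst2 was higher by 1.71 in neutrophil-like and 1.71 in T-cell-like barcodes and not called in monocyte/macrophage-like ones (0.47 ± 0.14). The differences between classes were not tested.

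Markers of neutrophils moved with the split as well. Their 10 genes summed to 933, 1486 and 889 CPM in Isg15-detected and 765, 544 and 749 in undetected T-cell-like barcodes. They summed to 3349.8, 3591 and 1799 in detected and 1480.2, 1541 and 1184 in undetected monocyte/macrophage-like barcodes. These levels lay far below the 57937, 64400.4 and 62909 CPM of Isg15-detected neutrophil-like barcodes. In T-cell-like barcodes Mmp9 and Retnlg were at 0 in all 3 detected sums, while S100a8 and S100a9 gave most of the sum. The part of neutrophil RNA in these results was not tested. T-cell markers were at 8381 ± 810.3 CPM in detected and 8005 ± 254 in undetected T-cell-like barcodes (SD, n = 3). Macrophage markers were at 23927, 22913 and 30318 CPM in detected and 32960.3, 25931 and 34872 in undetected monocyte/macrophage-like barcodes, lower with Isg15 in each of the 3 libraries.

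**Figure D4:**
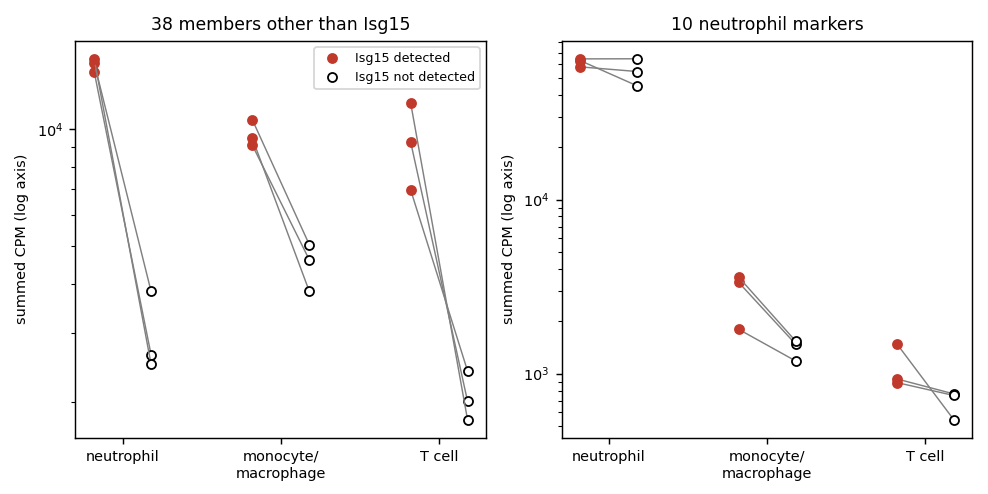
Summed CPM of the 38 members other than Isg15 (left) and of 10 neutrophil markers (right) in Isg15-detected (filled) and undetected (open) barcodes of 3 classes, on log axes, with lines joining the same library. The members are higher with Isg15 in every library of every class, and the neutrophil markers are higher with Isg15 in every T-cell-like and monocyte/macrophage-like library.

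The rest of the pathway was read from lists of its genes, beside the same backgrounds. Of 21 interferon genes only Ifng, which encodes interferon gamma, had enough UMIs for a test. It had 46.9, 88.6 and 66.8 CPM in T-cell-like barcodes (difference 5.20 ± 0.26) and 58.0, 48.9 and 35.7 in NK-cell-like barcodes (difference 4.44 ± 0.46), against a mean of 0.161 in neutrophil-like ones. Ifnb1 had 3 UMIs, all in monocyte/macrophage-like barcodes, and the other 19 genes had 0, among them every interferon alpha gene listed. A count of 0 over all plasmacytoid-dendritic-cell-like barcodes allows up to 3.83 CPM.

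Receptor and kinase genes of the pathway differed between classes. In plasmacytoid-dendritic-cell-like barcodes the type I receptor genes Ifnar1 (215, 184 and 235 CPM, difference 1.95 ± 0.17) and Ifnar2 (396, 247 and 434 CPM, difference 1.76 ± 0.16) were higher. The genes higher in neutrophil-like barcodes included Jak2 at 1.77 ± 0.14, Ifngr2 at 1.60 ± 0.13, Il10rb at 1.32 ± 0.08 and Ifnar2 at 0.99 ± 0.11. Ifnar1, at 31.0, 34.7 and 41.8 CPM, was called lower there (-0.38 ± 0.13). The highest adjusted p of these 7 calls, by edgeR's quasi-likelihood test, was 0.0118.

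Inhibitors of the pathway were higher in neutrophil-like barcodes for 7 of 8 genes, against 32.6% of all genes, and lower for 1, against 31.2%. Socs3, a cytokine-signalling suppressor gene, had 578, 625 and 631 CPM (difference 2.18 ± 0.11) and the phosphatase gene Ptpn6 437, 471 and 527 (difference 2.06 ± 0.11). Socs1 was higher in neutrophil-like (1.58 ± 0.17) and in T-cell-like barcodes (2.22 ± 0.16). The genes upstream, sensors and their adaptors, were higher for 11 of 13 in monocyte/macrophage-like barcodes, against 30.3% of all genes. There Irf5 had 136, 151 and 152 CPM (difference 1.99 ± 0.09). In plasmacytoid-dendritic-cell-like barcodes the RNA receptor gene Tlr7 (116, 84.9 and 81.5 CPM, difference 4.98 ± 0.39) and Irf8 (3006, 1913 and 3249 CPM, difference 4.65 ± 0.17) were higher. In neutrophil-like barcodes the adaptor gene Myd88 was higher (2.73 ± 0.12) and Irf8 lower (-4.40 ± 0.31).

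Antigen presentation genes, many of them interferon-induced, had the most higher calls of the 7 classes in T-cell-like barcodes. In neutrophil-like barcodes 3 of 13 tested were higher, against 32.6% of all genes, and 1 lower, against 31.2%. Their median difference was 0.13, against 1.77 for the 39 members. In T-cell-like barcodes 12 of 13 were higher, against 26.3% of all genes. Examples are the immunoproteasome gene Psmb8 (915, 997 and 921 CPM, difference 1.05 ± 0.11) and the peptide transporter genes Tap1 (1.06 ± 0.15) and Tap2 (1.31 ± 0.13). In epithelial-like barcodes 13 of 13 were lower, against 28.3% of all genes, such as the class I gene H2-D1 (521, 1246 and 419 CPM, difference -2.35 ± 0.18) and Psmb9 (-2.76 ± 0.22). Of a further list of 124 interferon-induced genes 97 were tested. In neutrophil-like barcodes 51 of them were higher, against 32.6% of all genes, and 21 lower, against 31.2%, with a median of 0.57. In epithelial-like ones 4 were higher, against 33.4%, and 71 lower, against 28.3%.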

How the data were processed

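The deposited matrices hold raw UMI counts per gene and barcode, unnormalised by the authors; the tools named are Cell Ranger and Seurat, with mm10 as build, per the submitters' processing notes, which give no versions. Whether the libraries are of the 5′ or the 3′ kind is unclear, since the labels mention each. Filters removed 22 barcodes for fewer than 200 genes and 107 for a mitochondrial share above 10%, in part the same ones. Scrublet called 1 doublet and so has not worked; an alternative leaves out the highest scores (153, 289 and 118 barcodes), and a T-cell cluster with a median score above 0.15 stayed unnamed. In all, 91 barcode sequences occur in more than 1 library.

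Clustering used scanpy 1.11.5 (2000 variable genes, 30 components, 15 neighbours, Leiden resolution 1, and 0.5 for states, leidenalg 0.10.2) without the interferon genes. Clusters were named from at least 3 markers; a mixed cluster of monocyte and Cd209a dendritic-cell genes was split after the data were seen. B-or-plasma-cell-like (77) and unnamed (304) barcodes entered no comparison. UMIs were summed per library and class and tested with edgeR 4.0.16 (R 4.3.3, quasi-likelihood, TMM, filterByExpr, library as a block since both sums come from the same library, Benjamini-Hochberg over all genes at 0.05). Standard errors are those of the log2 differences. The Isg15 split used barcodes thinned to 600 UMIs, leaving out 764 shallower neutrophil-like ones; Isg15 itself was not counted. The scripts were tested on simulated data. All 39 members are reported; values per library are given for those with the highest level of their role, for up to 4 higher members with the largest difference per class and for restricted members, and up to 4 called genes per further list by lowest adjusted p, others being named after their values were seen. The members and lists were chosen with earlier results of these data known, so no list is independent evidence. One gene of the receptor and kinase list is not reported here, and counts over that list are left out. Gene positions are from GENCODE vM21 (GRCm38), promoters from RefSeq. Alternatives were library totals, DESeq2 1.42.0, no low-count filter, no block, stricter barcode filters, resolution 0.5, other presence levels, 1000 UMIs, clustering with the interferon genes and each library left out. Intervals of a count of 0 use 3 counts and cover counting error only.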

Additional observations from a re-analysis of the deposited data

Results flagged for a closer look

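Barcodes outside the comparisons also held member transcripts. In the 77 B-or-plasma-cell-like barcodes, which were too few in a library to test, the 39 genes summed to 1495 CPM over the 3 libraries (234 of 156556 UMIs), with 2139, 1550.1 and 593 CPM in replicates 1, 2 and 3. This is below the mean of every class compared and above the 19.2 CPM that a count of 3 would give. In the 304 barcodes of unnamed clusters the genes summed to 7354 CPM, with 7357, 7577 and 6716 by replicate, between the means of monocyte/macrophage-like and neutrophil-like barcodes. These clusters include 1 of T-cell genes with a median doublet score above 0.15 and 1 led by Cd209a, Cxcl9 and Ccl2.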

How the results depend on the processing

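Of 343 member calls, 251 were kept under every alternative run; of 3280 checks of a call, 3071 kept direction and call, 202 lost the call and 7 reversed. Counts that moved by over 1.5 times follow. DESeq2 called 11 members higher in monocyte/macrophage-like barcodes (18 with edgeR) and 1 higher in the Ltc4s/Cxcl14 state (0 with edgeR, also 1 with library totals). Library totals gave 3 higher (8) and 11 lower (3) in the Ngp/Camp state. With interferon genes kept for clustering 19 were lower in dendritic-cell-like barcodes (6). With library and state as the block, an alternative chosen after seeing the data, 15 were higher with Isg15 in neutrophil-like barcodes (34), all 15 that were testable, and at 1000 UMIs 27 in monocyte/macrophage-like ones (13), where more members could be tested. At 10 CPM 20 members were shared (13) and 0 restricted (5), and at 50 CPM 4 and 20. Leaving out each library in turn gave, as lowest and highest, 2 and 5 lower in monocyte/macrophage-like, 6 and 13 higher and 3 and 9 lower in dendritic-cell-like, 1 and 3 higher in NK-cell-like, and 1 and 2 higher in epithelial-like barcodes. It gave 1 and 2 lower in the Hilpda/Cxcl3 and also in the Ngp/Camp state, 12 and 25 higher with Isg15 in T-cell-like barcodes, and 5 and 10 restricted members. Reversed were Gbp7 in dendritic-cell-like (0.052), Rsad2 in T-cell-like (0.11) and Gbp2 in epithelial-like barcodes (0.034) without the highest doublet scores. Without replicate 2 so were Mx1 in plasmacytoid-dendritic-cell-like (leaving out each library gave -0.17 to 1.83), Rsad2 in T-cell-like (-0.86 to 1.17) and Rsad2 in epithelial-like barcodes (-1.39 to 0.32), and Irf7 in the Hilpda/Cxcl3 state with library totals (-0.10). The cause of these changes was not tested. Without the replicate block, which pairs sums of the same library, the neutrophil-like count stayed 32 higher and 5 lower and the Isg15 counts were 34, 11 and 24 in neutrophil-like, monocyte/macrophage-like and T-cell-like barcodes. Plasmacytoid-dendritic-cell-like and NK-cell-like values are limited by depth (783529 and 889186 UMIs).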

Other observations

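Most members were highest in replicate 2 in neutrophil-like barcodes, by unequal ratios, a pattern noticed after the values were seen and described here with no test. The share of all genes highest in replicate 2 was not computed. The counts below thus have no background and cannot be told apart from a general difference of that library. Among members with at least 100 UMIs there, 6 of 7 GTPases were highest in replicate 2, with a median ratio of 1.80 (range 1.21 to 2.57) to the mean of replicates 1 and 3, and Irf1, a transcription factor gene, had a ratio of 2.20. Of the antiviral effectors 14 of 16 were highest in replicate 2, with a median ratio of 1.23 (0.891 to 1.62), and so were 4 of 4 transcription factors, 3 of 4 enzymes and 2 of 3 sensors, with medians of 1.25, 1.25 and 1.49. Rsad2 (0.891) and Usp18 (0.913) were among the exceptions. The summed GTPases had 343, 756 and 468 CPM in replicates 1, 2 and 3. Ifng in T-cell-like barcodes was also highest in replicate 2, at 46.9, 88.6 and 66.8 CPM. In NK-cell-like barcodes, the other class with a higher Ifng level, the gene was instead highest in replicate 1 and lowest in replicate 3. The Cxcl10/Saa3 state, which is high in GTPases, made up 262, 763 and 528 of the neutrophil-like barcodes in the 3 libraries. Whether any of these differences goes with another was not tested.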
